A study of Homo sapiens with 10 samples.

Results

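The SOXB and SOXC factors are 8 members of the SOX family of transcription factors. They were taken as the rows of the count table named SOX1, SOX2 and SOX3 (SOXB1), SOX14 and SOX21 (SOXB2), and SOX4, SOX11 and SOX12 (SOXC), 8 of 31017 genes in the table. The promoter fragment of each was the captured fragment that holds the gene start, and all 8 had a captured fragment. The samples were the human ESC line H9, grown undifferentiated, and neuroectodermal cells (NECs) made from the same line and harvested on day 7 of differentiation. RNA-seq and promoter capture Hi-C (PCHi-C, which enriches ligation products that contain a promoter) were each carried out on 2 biological replicates of each cell type. Every value therefore comes from a single cell line, and no source used here says which replicates of the 2 assays came from the same culture.

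SOX proteins bind the minor groove of DNA through an HMG box, recognise a short core such as ACAAAG or ACAATG, and usually act together with a partner bound at a neighbouring site. SOX1, SOX2 and SOX3 are activators that maintain neural progenitors, and SOX2 with POU5F1 is also a core factor of pluripotent cells. SOX14 and SOX21 bind the same core and mostly repress, and SOX21 is known to oppose SOXB1 activity in progenitors. SOX4, SOX11 and SOX12 are activators best known from the later step in which neural progenitors become neurons.

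The sequences upstream of the SOXB genes are shown because these genes include the 3 members called higher in NECs (SOX1, SOX3 and SOX21). A call asked for an adjusted p below 0.05 and a log2 fold change beyond 1.5. The SOXB genes also include SOX2, whose RNA did not pass the test. Of the 8 members, 6 had an entry among the RefSeq promoter sequences of GRCh38.p14, and SOX14 and SOX11 had none. Each line gives the 250 bases before the gene start, 5′ to 3′ on the strand of the gene, and capitals mark a SOX core (ACAAAG or ACAATG), the octamer ATGCAAAT that POU factors bind, or a CCAAT box (CCAAT), read on both strands.
SOX1 (chr13:112066899-112067148, plus strand): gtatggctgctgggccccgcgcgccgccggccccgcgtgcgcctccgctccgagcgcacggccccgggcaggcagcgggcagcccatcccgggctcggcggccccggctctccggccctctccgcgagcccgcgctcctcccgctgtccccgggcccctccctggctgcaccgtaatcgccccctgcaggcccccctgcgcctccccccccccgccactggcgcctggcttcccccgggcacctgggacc
SOX2 (chr3:181711675-181711924, plus strand): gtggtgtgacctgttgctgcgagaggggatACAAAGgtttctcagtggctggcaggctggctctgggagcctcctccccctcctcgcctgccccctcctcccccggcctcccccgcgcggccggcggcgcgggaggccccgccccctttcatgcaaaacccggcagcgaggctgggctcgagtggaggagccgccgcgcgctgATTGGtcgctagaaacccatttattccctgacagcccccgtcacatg
SOX3 (chrX:140505070-140505319, minus strand): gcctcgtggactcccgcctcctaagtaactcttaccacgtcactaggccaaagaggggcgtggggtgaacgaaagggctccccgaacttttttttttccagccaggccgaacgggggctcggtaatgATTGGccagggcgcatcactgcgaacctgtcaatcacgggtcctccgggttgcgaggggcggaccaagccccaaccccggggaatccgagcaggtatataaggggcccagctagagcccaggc
SOX21 (chr13:94712546-94712795, minus strand): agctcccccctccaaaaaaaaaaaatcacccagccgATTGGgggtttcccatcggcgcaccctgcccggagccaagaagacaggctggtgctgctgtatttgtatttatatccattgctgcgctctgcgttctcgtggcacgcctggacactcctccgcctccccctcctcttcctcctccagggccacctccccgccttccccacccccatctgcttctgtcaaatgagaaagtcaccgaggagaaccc

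The SOX2 window held 1 SOX core, which began 220 bases before the start, and none of the other 5 windows held a SOX core. Over 27305 RefSeq promoters, 21.4% held a SOX core in the same 250 bases. A CCAAT box was found in SOX2, SOX3, SOX21, SOX12 and SOX4, the last with 4 copies, but not in SOX1, against 33.0% of all promoters. The octamer was found in SOX12 alone of the 6, where it began 188 bases before the start, against 1.66% of all promoters. GC content ran from 48.8% in SOX4 to 82.0% in SOX1, with a median of 58.0% over all promoters. These matches describe the letters in the windows and do not show binding.

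RNA of the SOXB1 genes changed unequally between ESCs and NECs. SOX1 (ENSG00000182968) had 2.81 and 2.39 CPM (read counts scaled per library by TMM, with tests by edgeR across all genes) in the ESC libraries and 125 and 120 in the NEC libraries. It was the lowest SOXB1 gene in ESCs by CPM per length, and its groups lay far apart, by 5.57 ± 0.13 on the log2 scale (SE, adjusted p = 5.87e-06), or 47.4-fold higher in NECs. SOX3 (ENSG00000134595) had 23.4 and 14.0 CPM in ESCs and 64.2 and 70.4 in NECs, a change of 1.86 ± 0.23 on the log2 scale (SE, adjusted p = 0.000765). Its ESC libraries differed from each other more than its NEC libraries did, and the groups did not overlap. SOX2 (ENSG00000181449) had 343 and 329 CPM in ESCs and 370 and 410 in NECs. These values did not overlap either, but the difference of 0.21 on the log2 scale (SE 0.10) did not pass the test across genes (adjusted p = 0.106).

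Of the SOXB2 genes, SOX21 rose and SOX14 had almost no reads. SOX21 (ENSG00000125285) had 9.70 and 5.38 CPM in ESCs and 99.7 and 98.2 in NECs, and rose by 3.73 on the log2 scale (SE 0.24, adjusted p = 8.28e-05), or 13.3-fold. SOX14 (ENSG00000168875), which is known for small groups of brain and spinal cord neurons, had 2 and 1 reads in the ESC libraries and 1 and 0 in the NEC libraries. Both groups were at or under a floor of 3 counts per library, so it did not pass the filter on low counts and no fold change is given.

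None of the SOXC genes passed both thresholds for a call, which asked for an adjusted p below 0.05 and a log2 fold change beyond 1.5 in either direction. SOX11 (ENSG00000176887) had 84.8 and 76.2 CPM in ESCs and 192 and 193 in NECs, a change of 1.26 ± 0.093 on the log2 scale (SE, adjusted p = 0.000121) that passed on the adjusted p alone. SOX4 (ENSG00000124766) had 149 and 181 CPM in ESCs and 120 and 133 in NECs, and the change of -0.39 ± 0.12 on the log2 scale (SE, adjusted p = 0.0278) had the opposite sign and also passed on the adjusted p alone. SOX12 (ENSG00000177732) had 133 and 95.9 CPM in ESCs and 167 and 144 in NECs (0.45 ± 0.16 on the log2 scale, SE, with adjusted p = 0.0518). Over 11 other settings the adjusted p ran from 0.00629 to 0.206 for SOX4, from 0.00423 to 0.287 for SOX12 and from 0.0256 to 0.439 for SOX2, so their side of 0.05 depended on the setting. Without ESC replicate 2, SOX4 had an adjusted p of 0.206, and without NEC replicate 1 of 0.0798. Without ESC replicate 1 or NEC replicate 2, SOX12 reached 0.00804 and 0.0344, and SOX2 reached 0.0256 without NEC replicate 1.

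Of the 8 members, 7 passed the filter, and 3 of these (SOX1, SOX3 and SOX21) were called higher in NECs and 0 lower. Over all 17564 genes tested, 11.4% were called higher and 9.68% lower. On the adjusted p alone, 4 members were higher (SOX1, SOX3, SOX21 and SOX11), against 31.5% of all genes, and 1 was lower (SOX4), against 29.7%. DESeq2 made the same number of calls, 3 higher and 0 lower. The median log2 fold change of the 7 members was 1.26, against 0.014 over all genes tested. RNA was measured in bulk, so fewer cells of a type and less RNA per cell cannot be told apart. The ESC libraries shared a sequencing lane and the NEC libraries another, so lane and cell type cannot be told apart either.

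**Figure D1:**
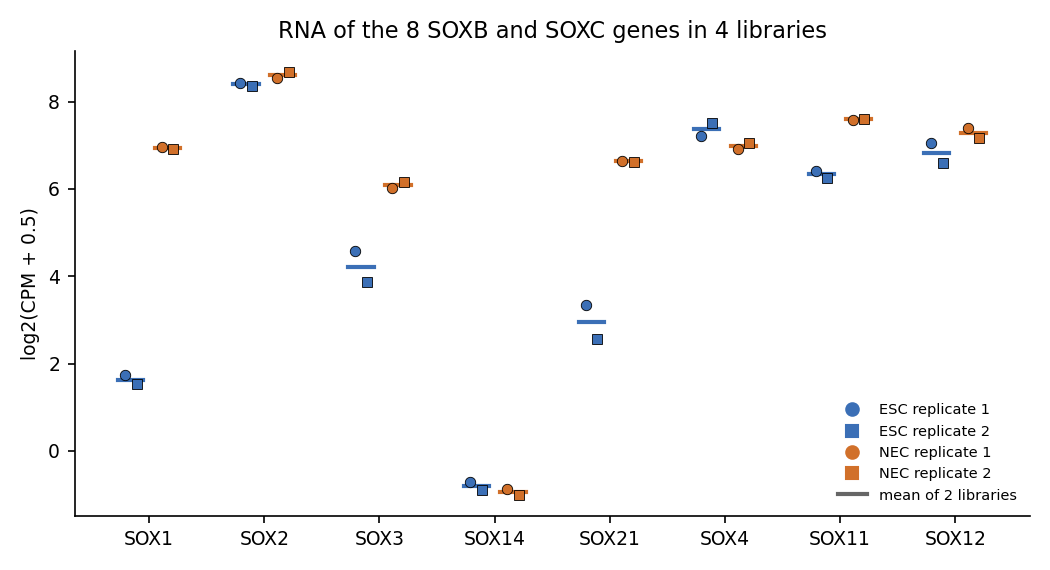
Level of each gene as log2(CPM + 0.5) on the vertical axis, with circles and squares for replicates 1 and 2 of ESCs (blue) and NECs (orange) and a bar at the mean of the 2 libraries. The points of SOX1, SOX3 and SOX21 lie well above their ESC points in NECs, those of SOX2 and the SOXC genes lie closer together, and SOX14 lies at the bottom in all 4 libraries.

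To compare levels between genes, CPM values were divided by the summed exon length of each gene (in kb, giving RPKM). In ESCs the order was SOX2 (134 ± 4.02 RPKM, mean ± SD, n = 2), SOX4 (33.9 ± 4.51), SOX12 (24.4 ± 5.55), SOX3 (8.95 ± 3.19), SOX11 (8.94 ± 0.680), SOX21 (2.58 ± 1.04), SOX1 (0.570 ± 0.0654) and SOX14 (0.0362 ± 0.0229). SOX3 and SOX11 overlapped in ESCs, and their order turned when the gene span was used as length. In NECs the order was SOX2 (155 ± 11.4 RPKM), SOX21 (33.8 ± 0.376), SOX12 (33.3 ± 3.37), SOX3 (32.3 ± 2.12), SOX1 (26.9 ± 0.799), SOX4 (25.9 ± 1.84), SOX11 (21.4 ± 0.0113) and SOX14 (0.0116 ± 0.0164). The values of SOX21, SOX12 and SOX3 overlapped in NECs, as did those of SOX1 and SOX4. SOX2 thus remained first in both cell types, while the 6 members below it other than SOX14 spanned 33.9 to 0.570 RPKM in ESCs and 33.8 to 21.4 in NECs.

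Reads were counted without regard to strand, so strand does not separate the reads of a member from those of an overlapping gene. SOX2 lies within SOX2-OT, a long noncoding RNA gene on the same strand, which had 83 and 105 reads in the ESC libraries and 352 and 527 in the NEC libraries (2.13 ± 0.19 on the log2 scale, SE, with adjusted p = 0.000242). SOX2 itself had 6482 to 10122 reads per library, so most of its reads were not counted for SOX2-OT. SOX21-AS1 starts on the same captured fragment as SOX21, on the opposite strand, and had 71 and 35 reads in ESCs and 715 and 787 in NECs. The change of 3.70 ± 0.37 on the log2 scale (SE, adjusted p = 0.000343) stood beside 3.73 for SOX21, and the 2 genes do not overlap. AL137061.2, which starts on the fragment too, had 13 and 3 reads in ESCs and 89 and 109 in NECs (3.49 ± 0.57 on the log2 scale, SE, with adjusted p = 0.00247).

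SOX12 overlaps AL034548.1 on the opposite strand, which had 1488 and 1430 reads in ESCs and 2248 and 2254 in NECs, against 2371 to 3561 for SOX12. The log2 fold change of AL034548.1 was 0.53 (SE 0.16, adjusted p = 0.0268). RP5-1103G7.4, which also overlaps SOX12 on that strand, had 40 and 26 reads in ESCs and 108 and 96 in NECs. AC010729.1 overlaps SOX11 and had 3 and 3 reads in ESCs and 20 and 26 in NECs, against 1601 to 4751 for SOX11. AC107057.2 and AC108025.2 start on the SOX11 fragment and did not pass the filter, with at most 10 reads in any library.

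The genes whose profile was nearest to each member were sought among 10817 protein-coding genes above a minimum average level, by Euclidean distance of centred log2(CPM + 0.5) over the 4 libraries. PAX8 and TAGLN3 were nearest to SOX1 (distance 0.25 for both), and GPR153 and CDH23 to SOX21 (0.19 and 0.21). CACNA1A and PRR5L were nearest to SOX3 (0.075 and 0.081), EMP2 and LRRC37B to SOX11 (0.032 and 0.044), and RCOR2 and RPLP1 to SOX12 (0.071 and 0.076). CCDC56 and ARHGAP35 were nearest to SOX2 (0.0084 and 0.011), and CRELD2 and ATP6V0E1 to SOX4 (0.023 and 0.033). Fitted log2 fold changes do not use the added 0.5 CPM, which narrows differences at low levels. They were 9.28 for PAX8 and 5.98 for TAGLN3 against 5.57 for SOX1. Neighbours of the other members lay closer to the member, such as GPR153 with 3.79 against 3.73 for SOX21.

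Among 11 other SOX genes, 9 passed the filter, of which 3 were called higher in NECs and 2 lower. SOX5, a SOXD factor, had 1.54 and 1.70 CPM in ESCs and 32.4 and 24.8 in NECs (4.13 ± 0.21 on the log2 scale, SE, with adjusted p = 3.61e-05). SOX6, also SOXD, rose by 3.63 on the log2 scale (SE 0.30, adjusted p = 0.000191), and SOX9, a SOXE factor of neural stem cells and the neural crest, by 3.25 (SE 0.22, adjusted p = 8.72e-05). SOX15 had 24.0 and 21.4 CPM in ESCs and 0.936 and 2.11 in NECs and fell by 3.87 on the log2 scale (SE 0.32, adjusted p = 0.000185). SOX13 and SOX8 had log2 fold changes of 0.53 and 1.11 and passed on the adjusted p alone (adjusted p = 0.00351 and 0.00321), and SOX7 did not pass (-0.49, SE 0.19, adjusted p = 0.0659). SOX18 was at the floor in both cell types. SOX30 did not pass the filter, with 8 and 7 reads in ESCs and 1 and 1 in NECs.

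The values of SOX10 and SOX17 depended on single libraries. SOX10, a neural crest factor, had 3.71 and 3.64 CPM in ESCs but 18.4 and 0.689 in NECs (1.36 ± 1.1 on the log2 scale, SE, with adjusted p = 0.323). Its log2 fold change was 2.32 without NEC replicate 2 and -2.40 without NEC replicate 1 (adjusted p = 0.000118 and 0.00211). The 10 neural crest markers summed to 146 and 134 CPM in the ESC libraries and to 266 and 133 in the NEC libraries, with 7 of 10 called higher and ETS1 lower in NECs and TFAP2B at 0 in both ESC libraries. SOX17, an endoderm factor, had 1.27 and 5.10 CPM in ESCs and 0.749 and 0.324 in NECs (-2.61 ± 0.74 on the log2 scale, SE, with adjusted p = 0.0213). It lost its call without ESC replicate 2 (-1.26, adjusted p = 0.160) and without NEC replicate 2 (-2.12, adjusted p = 0.0712). The 10 mesendoderm markers summed to 245 and 435 CPM in ESCs and to 22.4 and 29.2 in NECs, and 8 of 9 tested were called lower. The part of such cells in the SOX values was not tested.

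**Figure D2:**
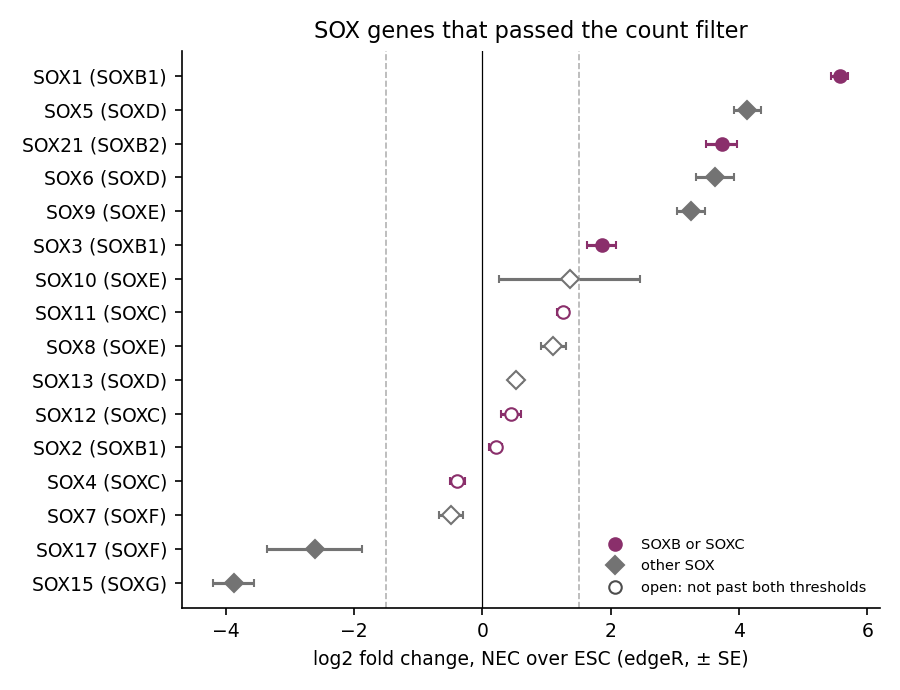
Log2 fold change of NECs over ESCs with its SE (horizontal axis) for the 16 SOX genes that passed the filter, circles for SOXB and SOXC genes and diamonds for the others, filled where both thresholds (dashed lines at a log2 fold change of 1.5 either way) were passed. SOX1 has the highest value (5.57), and the SOXC genes lie between -0.39 and 1.26.

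All 6 listed partners of the SOX factors passed both thresholds, 5 of them higher in NECs and POU5F1 lower. POU5F1, which pairs with SOX2 in pluripotent cells, had 1482 and 1438 CPM in ESCs and 31.0 and 111 in NECs (-4.35 ± 0.57 on the log2 scale, SE, with adjusted p = 0.000991). The POU3F factors and PAX6, which pair with SOXB1 proteins in neural cells, were all called higher. POU3F2 had 9 and 5 reads in ESCs and 2650 and 2566 in NECs (8.44 ± 0.25 on the log2 scale, SE, with adjusted p = 1.03e-05), and PAX6 rose by 5.67 on the log2 scale (SE 0.33, adjusted p = 5.39e-05). POU3F1 rose by 1.90 (SE 0.29, adjusted p = 0.00184), but reached only 1.47 without ESC replicate 2 and was then not called. POU3F3 and POU3F4 had 3 and 0, and 1 and 0 reads in ESCs against 283 and 155, and 56 and 29 in NECs.

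Of 5 textbook SOXB1 targets, 4 were called lower in NECs. LEFTY1, a Nodal inhibitor, fell by 10.34 on the log2 scale (SE 0.23, adjusted p = 5.87e-06), and NANOG fell by 5.74 (SE 0.37, adjusted p = 7.94e-05). UTF1 fell by 3.74 (SE 0.56, adjusted p = 0.00167). In the NEC libraries LEFTY1 had 3 and 10 reads and UTF1 had 4 and 10, so the sizes of these falls rest on few reads. FGF4 had 35 and 72 reads in ESCs and 0 in both NEC libraries, at least 18.2-fold lower against a floor of 3 counts per library. NES, the neural progenitor filament gene nestin, had a change of 1.46 ± 0.14 on the log2 scale (SE, adjusted p = 0.000325), just under the fold threshold, and passed both thresholds without ESC replicate 2 (1.58) or NEC replicate 1 (1.57). Of 5 SOXC targets, DCX (doublecortin) was called higher, with 8.05 ± 1.20 CPM in ESCs and 35.3 ± 7.55 in NECs (mean ± SD, n = 2 each). TEAD2 and STMN1 passed on the adjusted p alone (log2 fold change 0.52 and 0.60), and TUBB3 and MEX3A did not pass (0.01 and 0.26). In all, 6 of these 16 partners and targets were called higher and 5 lower, with a median log2 fold change of 0.56.

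The cell labels were checked against marker lists. POU5F1, NANOG, PAX6 and POU3F2 are also among the partners and targets above, so their calls count in both. Of 10 pluripotency markers, 9 were called lower in NECs and LIN28A passed on the adjusted p alone (-0.69). The lowest was GDF3 (-7.10), which had only 3 and 5 reads in the NEC libraries. Of 9 neuroectoderm markers tested, 8 were called higher, with HES5 at 0 in both ESC libraries and 584 and 593 reads in NECs, and OTX2 was lower on the adjusted p alone (-1.33). Of 8 neuron markers tested, 5 were called higher, from MAPT (2.04) to ELAVL3 (5.22), and GAP43 was lower on the adjusted p alone (-0.95). Of the mesendoderm and neural crest markers tested, EOMES (-6.20) was the lowest. TFAP2B had no reads in ESCs and 339 and 36 reads in the NEC libraries. Its mean NEC level was at least 61.9-fold above a floor of 3 counts per library, a bound that rests mostly on NEC replicate 1. Library totals were 19234087 to 25356382 counts.

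PCHi-C gives, for each captured promoter fragment (bait), the HindIII fragments that were called as its contacts, here termed promoter-interacting regions (PIRs). The lists hold pairs with a CHiCAGO score of at least 12, where the score grows as the distance-weighted p-value of the pair falls. They hold no read numbers, and so their depth is unknown. There are a list for each replicate and a merged list in which the authors combined the 2 replicates of a cell type. Coordinates of fragments are GRCh37, and distances run between the midpoints of bait and PIR. In the merged lists the 8 member baits had 46 PIRs in ESCs and 107 in NECs, all on the chromosome of the gene. The lists of single replicates held 54 and 33 for ESCs, against 97 and 80 for NECs. Over all baits, the merged lists held 99302 interactions in ESCs and 99181 in NECs. The replicate lists held 95283 and 86429 for ESCs and 100305 and 81168 for NECs.

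The SOX2, SOX21 and SOX11 baits had more PIRs in both NEC replicates than in both ESC replicates, 3 of 8 members, against 13.7% of 17981 baits that hold a gene start and have a call. None had more in both ESC replicates, against 12.7%. An exact permutation test of 2 replicates against 2 cannot go below p = 0.333 (two-sided), and these 3 baits were at that limit. The exact permutation p was 0.667 for SOX1, SOX3 and SOX12 and 1.00 for SOX14 and SOX4.

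The SOX2 bait (chromosome 3, 181427106 to 181445633) had 13 and 7 PIRs in ESC replicate lists against 24 and 30 in those of NECs, with 10 and 25 in the merged lists. Of the baits that hold a gene start, 85.9% had fewer PIRs in the merged ESC list and 97.8% had fewer in the NEC list. The SOX21 bait (chromosome 13, 95357090 to 95366898) had 9 and 7 PIRs in ESC replicates and 16 and 19 in NEC replicates, and 8 and 19 in the merged lists. The SOX11 bait (chromosome 2, 5828892 to 5834630) had 1 and 3 against 9 and 8, and 0 and 8 in the merged lists. None of the 8 merged NEC scores of SOX11 reached 15, the highest being 14.17, so its difference in the merged lists was 0 at that threshold. In the replicate lists, SOX11 still had more PIRs in both NEC replicates at a score of at least 15.

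For the remaining members the replicates overlapped. The SOX1 bait (chromosome 13, 112708988 to 112734936) had 8 and 1 PIRs in ESC replicates and 12 and 7 in NEC replicates, with 11 and 16 in the merged lists. The SOX3 bait (chromosome X, 139585194 to 139587676) had 9 and 10 against 14 and 10, although the merged lists gave 9 and 21, and 5 of the 21 were in neither replicate list. The SOX4 bait (chromosome 6, 21593556 to 21594408) had 5 and 1 against 13 and 1, and 4 and 12 merged, so its difference rested on NEC replicate 1. With NEC replicate 2 alone in place of the merged NEC list, the difference was -3 for SOX4 and -4 for SOX1. The SOX14 bait (chromosome 3, 137480875 to 137483765) had 8 and 4 against 7 and 4, with 4 in each merged list. The SOX12 bait (chromosome 20, 305699 to 309123) had 1 and 0 against 2 and 1, with 0 and 2 merged. Its PIR in ESC replicate 1 lay on another chromosome (chromosome 12, 84212 to 89610, score 18.68). The same fragment was called in NEC replicate 1 (12.04) and was in no merged list.

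**Figure D3:**
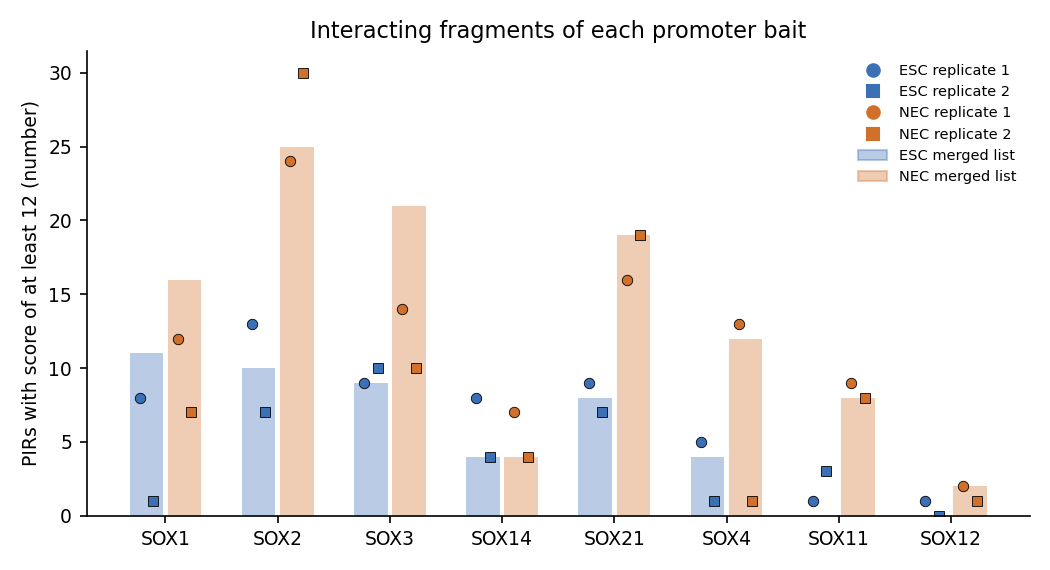
Number of PIRs with a score of at least 12 (vertical axis) for each member bait, with bars for the merged lists and circles and squares for replicates 1 and 2, ESCs in blue and NECs in orange. The NEC points lie above both ESC points for SOX2, SOX21 and SOX11, and the points of the other baits overlap or touch.

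The differences in PIR number and in RNA are set side by side here. SOX2 had the largest difference in merged PIRs (15 more in NECs) and a log2 fold change of RNA of 0.21, while SOX1 had the largest change in RNA (5.57) and a difference of 5 PIRs whose replicates overlapped. SOX21 had 11 more PIRs and rose by 3.73 in RNA, SOX3 had 12 more and rose by 1.86, and SOX11 had 8 more with 1.26. SOX4 had 8 more PIRs with a log2 fold change of RNA of -0.39. Without NEC replicate 1 the PIR differences were -3 for SOX4, -4 for SOX1 and 1 for SOX3. No correlation over the 8 genes was computed.

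In the merged lists, the PIRs called from the member bait lay on 1 side of the gene for SOX2, SOX3 and SOX21. All 10 ESC and 25 NEC PIRs of SOX2 and all 9 and 21 of SOX3 were downstream, whereas all 8 and 19 of SOX21 were upstream. SOX3 had upstream calls outside this count. The RP1-177G6.2 bait called the SOX3 fragment in the merged ESC list (14.45) and in ESC replicate 1 (13.79). The MAGEC3 bait did so in ESC replicate 1 (12.53). In ESC replicate 2 alone, the SOX3 bait had a PIR 2545 kb upstream (13.43). SOX1 had PIRs on both sides, 8 upstream and 3 downstream in ESCs and 11 and 5 in NECs. SOX4 had 4 upstream and 0 downstream in ESCs but 5 and 7 in NECs, and the farthest of the downstream PIRs lay 2070 kb from the bait. Median distances in the merged NEC lists were 374 kb for SOX21, 375 kb for SOX3, 393 kb for SOX1, 543 kb for SOX2, 1082 kb for SOX11 and 1122 kb for SOX4. Of the 107 NEC PIRs, 2 lay within 50 kb of the bait and 15 beyond 1 Mb, 9 of these belonging to SOX4 and 5 to SOX11.

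**Figure D4:**
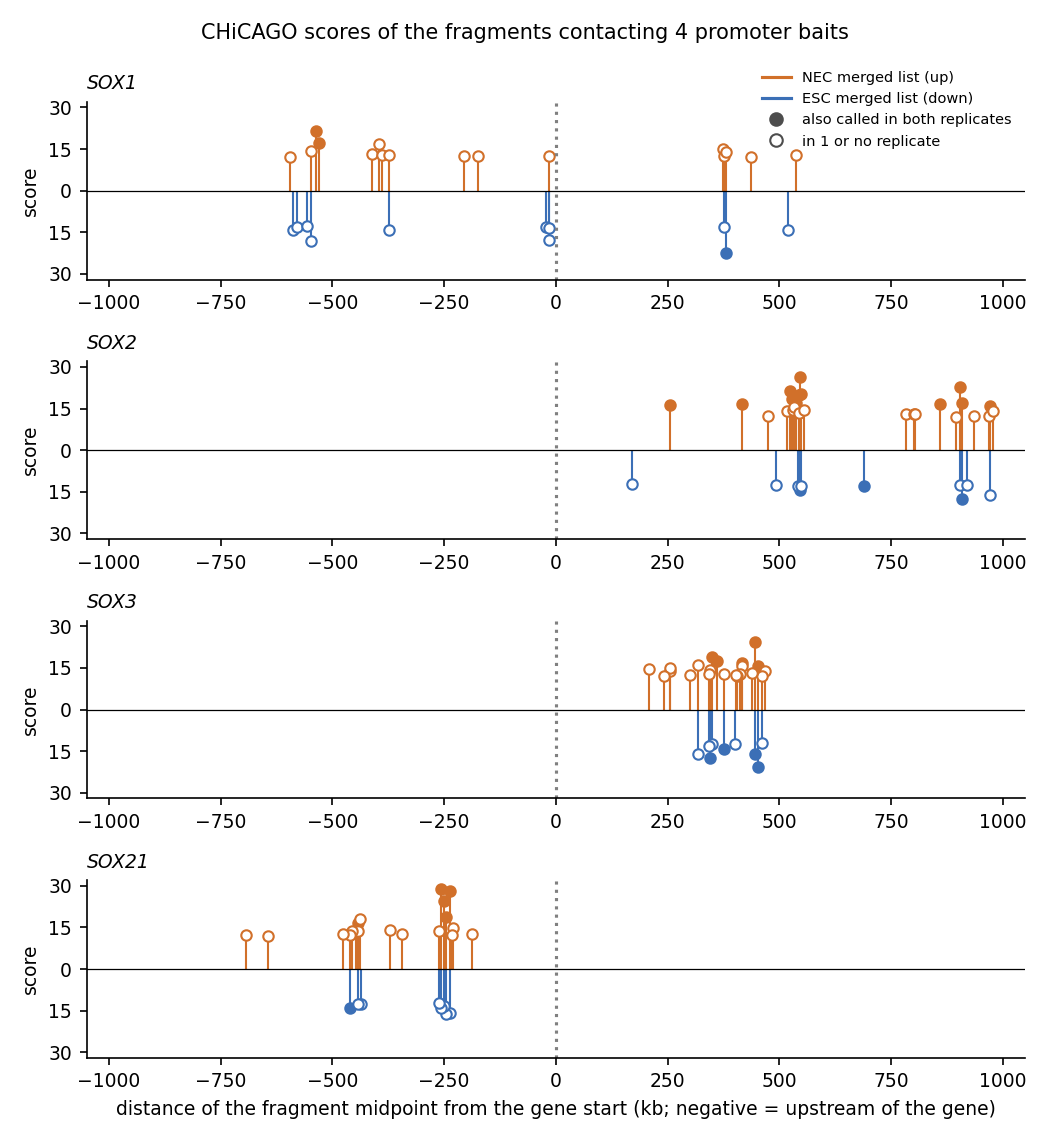
CHiCAGO score (vertical axis, NEC upward and ESC downward) against the distance of the PIR midpoint from the gene start in kb (horizontal axis, negative values upstream) for the merged lists of SOX1, SOX2, SOX3 and SOX21. Filled points were also called in both replicates of the cell type. SOX2 and SOX3 have all points downstream, SOX21 all upstream and SOX1 on both sides.

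The SOX2 PIRs fell into clusters, and the highest score (26.44 in NECs) lay in that between 518 and 548 kb from the bait. This was the fragment from 181975559 to 181977921, 540 kb away, which was called in all 4 replicates (14.85 and 12.18 in ESCs, 23.07 and 16.77 in NECs). Beside it, fragments from 181953319 to 181955982, from 181957167 to 181960478 and from 181973063 to 181975558 were called in both NEC replicates and in no ESC list, with merged scores of 21.37, 18.31 and 20.03. The other SOX2 PIRs of this kind were 249, 410 and 852 kb away, with merged scores of 16.12, 16.7 and 16.71. The fragment from 182333147 to 182335119, 898 kb away, scored 22.6 in NECs and 12.43 in ESCs. Its neighbour from 182335659 to 182340110 was called in all 4 replicates, with merged scores of 17.04 (NECs) and 17.51 (ESCs). In the other direction, the fragment from 182115125 to 182121173 was called in both ESC replicates (12.73 and 12.05) and in no NEC list. The second highest ESC score was 16.14, at 965 kb, where the NEC score was 15.89.

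Most SOX21 PIRs of the merged lists lay in a near cluster, 190 to 264 kb away, or a farther one over ABCC4, a transporter gene. A pair of NEC PIRs lay beyond both, at 647 and 695 kb, with scores of 12.08 and 12.32. The fragment from 95617164 to 95625851, itself a bait without a gene start in the table, had the highest NEC score (28.68; replicates 16.61 and 23.15) and 14.05 in ESCs. It was followed by the fragments from 95596934 to 95604649 (27.96 in NECs and 15.83 in ESCs) and from 95612696 to 95616033 (24.42 and 13.15). When the first of these was the bait, the SOX21 fragment was called as its PIR in the merged NEC list (22.44) and in both NEC replicates (12.7 and 20.38), and in no ESC list. Of the 19 NEC PIRs, 9 overlapped ABCC4, 5 of them an exon. The fragment from 95808579 to 95814608, in ABCC4, was called in both NEC replicates (12.47 and 14.02) and in no ESC list. The highest ESC score of SOX21 was 16.07, from 95608316 to 95610664, with 18.63 in NECs, and the third was 14.09, at 463 kb.

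For SOX3, the fragments from 139131788 to 139137045 and from 139137046 to 139144942 adjoin each other 452 and 445 kb away and were both called in all 4 replicates. The first scored 20.72 in ESCs and 15.83 in NECs, and the second 15.97 and 24.21, so the order of the 2 cell types differed between neighbours. Next came the fragments from 139233380 to 139240704 (12.47 in ESCs and 18.96 in NECs) and from 139221756 to 139232626 (17.61 in NECs). In ESCs the second highest score was 17.54, from 139240705 to 139244018, with 14.1 in NECs. The fragment from 139170383 to 139171869, a bait without a gene start in the table, was called in both NEC replicates (13.3 and 13.86) and in no ESC list, and from its own side it called the SOX3 fragment in both NEC replicates too (13.56 and 13.63). Conversely, the bait from 138960392 to 138972242 called the SOX3 fragment in both ESC replicates (16.11 and 15.92) and in no NEC list. Its merged ESC score was 15.67.

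SOX1 had its highest ESC score downstream, 22.53 from 113097343 to 113108614, 381 kb away, called in both ESC replicates (17.33 and 17.41) and at 13.9 in NECs. Its highest NEC scores were upstream, at the adjoining fragments from 112182267 to 112188329 (21.69) and from 112188330 to 112194124 (17.07), 537 and 531 kb away. Both were called in both NEC replicates and in no ESC list, and next to them the fragment from 112167179 to 112182266 reached 17.97 in ESCs against 14.34 in NECs. The third NEC score was 16.74, 397 kb upstream. The third ESC score was 17.89, at a bait 15.4 kb away without a gene start in the table, which was in no replicate list. All 5 PIRs shared by the merged lists of SOX1 had the lower score in NECs, with a median difference of -3.63.

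All 4 ESC PIRs of SOX4 and 5 of its 12 NEC PIRs lay in CDKAL1, and none overlapped a protein-coding exon. The highest was 17.62 in NECs, from 20873514 to 20877296, 719 kb away, followed by 15.85 at the adjoining fragment and 15.25 at 1144 kb downstream. The highest in ESCs was 15.93, at 1032 kb, with 14.87 in NECs, followed by 13.2 and 12.4. None of the SOX4 PIRs was in both replicate lists of a cell type. From the other side, the E2F3 bait called the SOX4 fragment in both NEC replicates (17.25 and 13.16) and in the merged NEC list (19.28), and in no ESC list. The PRL bait also called it in both NEC replicates (19.34 and 13.18) and in the merged NEC list (17.07), but in ESC replicate 1 too (14.64). The CDKAL1 bait called it in both merged lists (14.44 in ESCs and 16.44 in NECs), but of the replicates only in replicate 1 of each cell type (16.42 and 15.71). E2F3 is a cell cycle transcription factor gene.

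For SOX11, the fragments from 5511784 to 5514290 and from 6911243 to 6913030, 319 kb upstream and 1080 kb downstream, were called in both NEC replicates and in no ESC list, with merged scores of 13.48 and 14.17. The next was 14.01, at 1086 kb. A further PIR of SOX11, with a merged NEC score of 12.18 and in no replicate list, holds the start of RSAD2, an interferon-induced gene with under 0.1 CPM on average in either cell type. The highest scores of SOX14 were 20.79 in NECs, 660 kb upstream, and 13.96 in ESCs, at the fragment with the start of STAG1, a cohesin subunit gene, which scored 14.96 in NECs. STAG1 had 63.5 and 60.4 CPM on average in ESCs and NECs and a change of -0.07 ± 0.13 on the log2 scale (SE, adjusted p = 0.655). The other SOX14 scores were at most 15.34. SOX12 had PIRs in the merged NEC list at 59.0 kb (14.98) and 19.7 kb (13.66), and none overlapped a protein-coding gene. From the other side, the bait with the starts of C20orf96 and ZCCHC3 called the SOX12 fragment in both merged lists (12.31 in ESCs and 12.66 in NECs). It did so in NEC replicate 2 too (13.23), where the SOX12 bait also called that fragment (13.6).

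Over all 8 baits, 201 interactions were in at least 1 of the 6 lists. Of these, 12 (5.97%) were called in both NEC replicates and in no ESC list, against 1.83% of 312601 interactions of all baits, and 6 of the 12 belonged to SOX2, 2 each to SOX1 and SOX11, and 1 each to SOX3 and SOX21. In the opposite direction the count was 1 (0.498%), against 1.83%. Called in all 4 replicates were 4 (1.99%), 2 of SOX2 and 2 of SOX3, against 2.50%. Of the 28 interactions in both merged lists, 15 (53.6%) had the higher score in NECs, against 52.6% of all baits. By member this was 6 of 7 for SOX21, 3 of 5 for SOX2, 4 of 8 for SOX3, 1 of 2 for SOX4, 1 of 1 for SOX14 and 0 of 5 for SOX1. The interactions of a bait share a fragment and often adjoin, and are not independent.

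The ESC and NEC lists of a member shared 28 PIRs in all. Of the PIRs in the ESC list, 8 of 9 for SOX3, 7 of 8 for SOX21, 5 of 10 for SOX2 and 5 of 11 for SOX1 were also in the NEC list. These same fragments were 8 of 21, 7 of 19, 5 of 25 and 5 of 16 in the NEC list. For SOX4 the counts were 2 of 4 and 2 of 12, for SOX14 1 of 4 in both directions, and SOX11 and SOX12 had no PIR in the merged ESC list. Over all baits, 44.2% of the ESC interactions were also in the NEC list and 44.3% of the NEC interactions in the ESC list.

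Few PIRs of the members overlapped a protein-coding gene. In ESCs this was 9 of 46 (19.6%), against 72.6% of the PIRs of all baits, with 4 over a long noncoding RNA gene only and 33 over neither. In NECs it was 18 of 107 (16.8%), against 69458 of 99181 over all baits, with 19 and 70 in the other classes. A gene start of the count table lay in 2 of the ESC PIRs (4.35%, against 30.1% over all baits) and 3 of the NEC PIRs (2.80%, against 30.4%). These shares are a description, since the PIRs of a bait often adjoin, and the difference from the other baits was not tested. The genes were TUBGCP3 for SOX1 (ESC list, in no replicate list), STAG1 for SOX14, and RSAD2 and AC107070.1 for SOX11.

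Windows of 100 bases are shown for the PIRs with the highest NEC score of SOX2, SOX3, SOX21 and SOX1, from the GRCh37 plus strand. Each is the first window of its PIR with the most SOX cores, and so was picked for them, and capitals mark the cores on either strand.
SOX2 PIR (chr3:181976972-181977071): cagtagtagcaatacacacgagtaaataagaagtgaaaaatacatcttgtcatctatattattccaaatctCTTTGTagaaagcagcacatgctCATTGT
SOX3 PIR (chrX:139137308-139137407): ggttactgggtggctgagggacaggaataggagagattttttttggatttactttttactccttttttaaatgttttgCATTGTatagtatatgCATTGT
SOX21 PIR (chr13:95617236-95617335): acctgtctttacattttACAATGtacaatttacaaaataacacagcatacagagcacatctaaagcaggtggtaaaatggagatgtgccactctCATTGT
SOX1 PIR (chr13:112182333-112182432): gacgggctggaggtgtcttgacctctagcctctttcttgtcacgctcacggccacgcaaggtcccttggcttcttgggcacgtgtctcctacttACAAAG

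The whole fragments held 6, 15, 13 and 2 SOX cores, the first and last being 2.54 and 0.330 per kb. Over all PIRs of a member, the density was 1.11 per kb for SOX1, 1.47 for SOX2, 1.56 for SOX3, 1.66 for SOX14, 1.42 for SOX21, 1.84 for SOX4, 1.41 for SOX11 and 0.731 for SOX12. Over 78855 PIR fragments of all baits it was 1.35 per kb. GC content was 36.9% in the SOX4 PIRs, 49.5% in those of SOX1, 49.0% in those of SOX12 and 45.0% over all PIRs, and the members with the lowest GC content (SOX4) and the highest (SOX1 and SOX12) had the highest and the lowest densities of SOX cores. The octamer ATGCAAAT was found at 0.0495 per kb for SOX1, 0.121 for SOX2, 0.134 for SOX3, 0.0731 for SOX14 and 0.117 for SOX21. It was at 0.163 per kb for SOX4 and 0.150 for SOX11 and absent from the SOX12 PIRs, against 0.0751 over all PIRs. Both motifs are rich in A and T, and these densities are a description of the fragments.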

How the data were processed

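RNA-seq was deposited as raw counts. Per the labels and the study's methods, the authors trimmed reads, aligned them to GRCh37 with TopHat2 2.0.8b (with Bowtie 1.0.0, per the submitters' processing notes) and counted them per Ensembl gene without strand. The PCHi-C lists deposited by the authors hold a CHiCAGO score per pair of HindIII fragments, mapped to GRCh37. The authors called them per replicate and on both replicates combined. No other values were used.

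Counts were fitted with edgeR 4.0.16 in R 4.3.3 (filterByExpr, minimum count 10, TMM, quasi-likelihood test, Benjamini-Hochberg over 17564 genes), with cell type as the only term. Fold changes used a prior count of 0.125. DESeq2 1.42.0, other scalings, filters and each library left out were alternatives, as were a score of at least 15, PIRs that are baits left out and adjoining PIRs counted as 1. Lists were read with pandas 2.3.3 and scipy 1.17.1 under Python 3.11.15 (numpy 2.4.6, figures by matplotlib 3.10.9). Annotation of PIRs was GENCODE v44 lifted to GRCh37. The tests were checked on simulated data.

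The genes named are the 8 members, 11 other SOX genes (SRY left out), the noncoding genes at member loci, 16 partners and targets, and the marker genes with extreme values. Named PIRs are the 3 with the highest merged score per bait and cell type and those called in both replicates of only 1 cell type. Members and lists were chosen with earlier results of these data known. The edgeR p-values rest on a spread between 2 biological replicates per cell type that is shared by both cell types and moderated across genes. The permutation p-values rest on the PIR numbers of the replicate lists alone. SOX1-OT was not analysed here. Counting floors cover counting error only.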

Additional observations from a re-analysis of the deposited data

How the results depend on the processing

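The 3 calls of SOX1, SOX3 and SOX21 and the 0 calls lower held under all 11 alternatives that kept the fold threshold, the DESeq2 tests and each library left out included. Without the fold threshold, 1 member was lower (SOX4, -0.39) and SOX11 (1.26) also passed, 5 other SOX genes were higher, and 5529 genes in all were higher and 5209 lower. With 1 RNA-seq library left out, the other SOX genes called lower numbered 1 to 3. Under such fits the lone library is assumed to vary like the other group. Of the 3 called members, SOX3 came nearest the fold threshold, with a log2 fold change of 1.52 without ESC replicate 2.

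Same-numbered RNA-seq libraries deviated together only weakly (correlation 0.061), and the labels do not pair them. With the replicate number as a block, 3 members were called higher and 0 lower, and 1987 genes higher and 1711 lower in all. With the block, SOX4 and SOX12 had adjusted p-values of 0.00838 and 0.00623, and no call of a member changed.

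Differences in PIR number (NEC minus ESC) moved more. At a score of at least 15 they were 3 for SOX3, 4 for SOX21, 2 for SOX4 and SOX14, 11 for SOX2 and 0 for SOX1, SOX11 and SOX12 in the merged lists. The same 3 baits (SOX2, SOX21 and SOX11) still had more PIRs in both NEC replicates, against 10.4% of baits with a gene start. With adjoining PIRs counted as 1 the differences were 9 for SOX2, 5 for SOX3 and 6 for SOX21, and SOX3 joined the baits with more PIRs in both NEC replicates (4 in place of 3). Without PIRs that are baits, SOX11 had 6. With 1 replicate list in place of a merged list, the ranges were -4 to 15 for SOX1, 1 to 12 for SOX3, -4 to 3 for SOX14, 8 to 12 for SOX21, -3 to 11 for SOX4, 5 to 9 for SOX11 and 1 to 2 for SOX12. The sign turned for SOX1 (-4) and SOX4 (-3), both without NEC replicate 1, and the cause was not tested. Counting fragments within 10 kb as shared raised the share of PIRs found in both cell types from 37.0% to 74.1% for SOX1 and from 28.6% to 57.1% for SOX2, and from 44.2% to 65.1% over all baits. The lists give no read depth, so a missing call may lie just under the threshold.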
